A study of Mus musculus with 50 samples.

Results

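The 10 genes described here belong to the Hippo pathway of the mouse, out of 21954 genes in the deposited tables. They comprise the coactivators Yap1 and Wwtr1 (which encodes TAZ), the DNA-binding factors Tead1, Tead2, Tead3 and Tead4, the kinases Lats1 and Lats2, and the target genes Amotl2 and Ankrd1. They were selected by name with earlier results of the same digits in view, and on their normalized TPM over time and its rank correlation with Yap1 over the 29 non-regenerative digits. These correlations are therefore given as a description without a test. The tests of the members over time and between groups use the same digits, and their p-values do not account for this selection. RNA was sequenced from the wound bed of the distal terminal phalanx (P3, the bone at the digit tip) of male C57BL/6 mice aged 9 to 10 weeks, after amputation of hindlimb digit 3 on both sides. The non-regenerative digits (n = 29) had 60 to 80% of the phalanx removed by their labels, and 17 of them lie above the 67% that defines this outcome in the study. There were 3 digits at each of 0, 3, 6, 12 and 24 hours, 3 days, 14 days and 21 days, and 5 digits at 7 days. The intermediate digits (n = 12), labelled Medium, had 41 to 55% removed and came from 0 and 24 hours and from day 14 and day 21, with 3 digits a time point. Regenerative digits were not analysed here. Beside the digits, 9 libraries of macrophages cultured from bone marrow are described, from female C57BL/6 mice younger than those of the digits. These cells were unstimulated (M0) or treated for 24 hours with IFN-γ and LPS (M1) or with IL-4 (M2). The labels do not say which digits came from the same animal, so p-values measure the spread between digits, which may share an animal.

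In the Hippo pathway, a kinase cascade ends in LATS1 and LATS2, which phosphorylate YAP and TAZ and thereby keep them in the cytoplasm or mark them for degradation. Unphosphorylated YAP and TAZ enter the nucleus and bind TEAD factors, which contact the DNA and raise the transcription of genes such as Ctgf, Cyr61, Ankrd1 and Amotl2, the last encoding a protein that binds YAP in turn. The pathway senses cell density, stretch and injury, and in skin and other epithelia it is known for its part in wound repair. It acts mostly on proteins, so mRNA levels show the supply of its parts and not their activity.

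TEAD factors bind the letters GGAATG, and the stretches of member promoters that hold them are shown because the members include the genes of these factors. The promoters are RefSeq's for GRCm38.p6, from 250 bases before to 50 bases after each start, and 8 of the 10 members matched an entry of the table used here, which holds none for Tead1 and Tead4. Both strands were searched, where the reverse strand reads CATTCC. Of 32851 promoters of all genes, 4817 (14.7%) held at least 1 match. The 8 members have 12 promoters in this table, of which 8 held a match, and these 8 belong to 6 members. The promoters of Wwtr1 overlap and hold the same match, which is counted for each. The 14.7% is a share of promoters and not of genes, and an excess in the members was not tested. The matches below, chosen as 1 for each member and both for Ankrd1, lie before a start site, are written 5′ to 3′ on the strand of the gene, and have the matching letters in capitals.
Yap1, chr9:8004720-8004749, minus strand: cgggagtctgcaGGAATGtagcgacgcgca
Wwtr1, chr3:57576029-57576058, minus strand: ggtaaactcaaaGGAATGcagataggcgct
Tead3, chr17:28350970-28350999, minus strand: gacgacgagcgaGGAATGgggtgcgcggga
Amotl2, chr9:102717727-102717756, plus strand: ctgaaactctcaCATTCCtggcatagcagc
Ankrd1, chr19:36120037-36120066, minus strand: gtcactgccaaaGGAATGaccctctcacat
Ankrd1, chr19:36119950-36119979, minus strand: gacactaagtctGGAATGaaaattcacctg
The first matching base lay 141 bases before the start in Yap1 and 65 in Amotl2, and Ankrd1 held 2 matches, at 210 and 123 bases. Tead3 has 3 starts and 4 matches in all, and those not shown lie 123 and 114 bases before its second start and just after it. In Lats2 the only match lay just after a start, and Tead2 and Lats1 held none in these windows. A match in letters is a description of the sequence, and binding was not measured.

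Total expected counts ran from 1468749 to 13011782 in the non-regenerative and from 3408916 to 11980697 in the intermediate digits. In the non-regenerative group, 2 digits stood apart from all others: replicate 2 at 14 days, whose median rank correlation with the other digits was 0.63, and replicate 2 at 7 days, at 0.69 with 10096 genes above 0. The next digit was at 0.81. Values of the members that rest on these digits are given without them where the text says so. The labels carry a date whose meaning is not given, with 16 of the non-regenerative digits in an earlier period and 13 in a later one, and 8 and 4 of the intermediate digits. In 5 pairs of digits the labels share a mark, a date and a side, 4 of them at different time points, including replicate 1 at 0 hours with replicate 3 at 12 hours of the non-regenerative digits, and 1 of them at 14 days, replicate 1 of the intermediate with replicate 3 of the non-regenerative digits. Whether a shared mark means a shared animal is not given in the sources used here. The wound bed holds a mixture of cell types, and the summed normalized TPM of keratinocyte markers was 21381 to 116791 over the digits. The 116791 is from the digit at 14 days that stood apart, where the normalized TPM of all genes summed to 3.36e+06. The next digit was at 60030, with a sum over all genes of 1.01e+06. Because the tissue was sequenced in bulk, fewer cells of a type and less RNA per cell cannot be told apart.

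Levels are given as normalized TPM, the authors' TPM (the relative number of transcripts) scaled between libraries, which can be compared between genes because it is per transcript length. Over all 41 digits, Amotl2 was the highest member with 133 ± 39.9 (SD), followed by Yap1 with 59.9 ± 14.3 and Wwtr1 with 38.3 ± 10.7. Tead3 was the highest of the DNA-binding factors with 25.3 ± 12.01. The kinases Lats2 with 19.9 ± 9.81 and Lats1 with 19.2 ± 5.54 did not differ beyond their spread, and the same holds for Tead1 with 14.1 ± 5.15 and Tead4 with 12.4 ± 7.80. Tead2 was lower, with a median of 4.52, and Ankrd1 was listed at 0 in 32 of 41 digits. Relative to its mean, Yap1 varied less in the intermediate digits (coefficient of variation 9.31%) than in the non-regenerative ones (28.2%, or 21.9% without the 2 digits that stood apart), and the difference in spread was not tested.

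**Figure D1:**
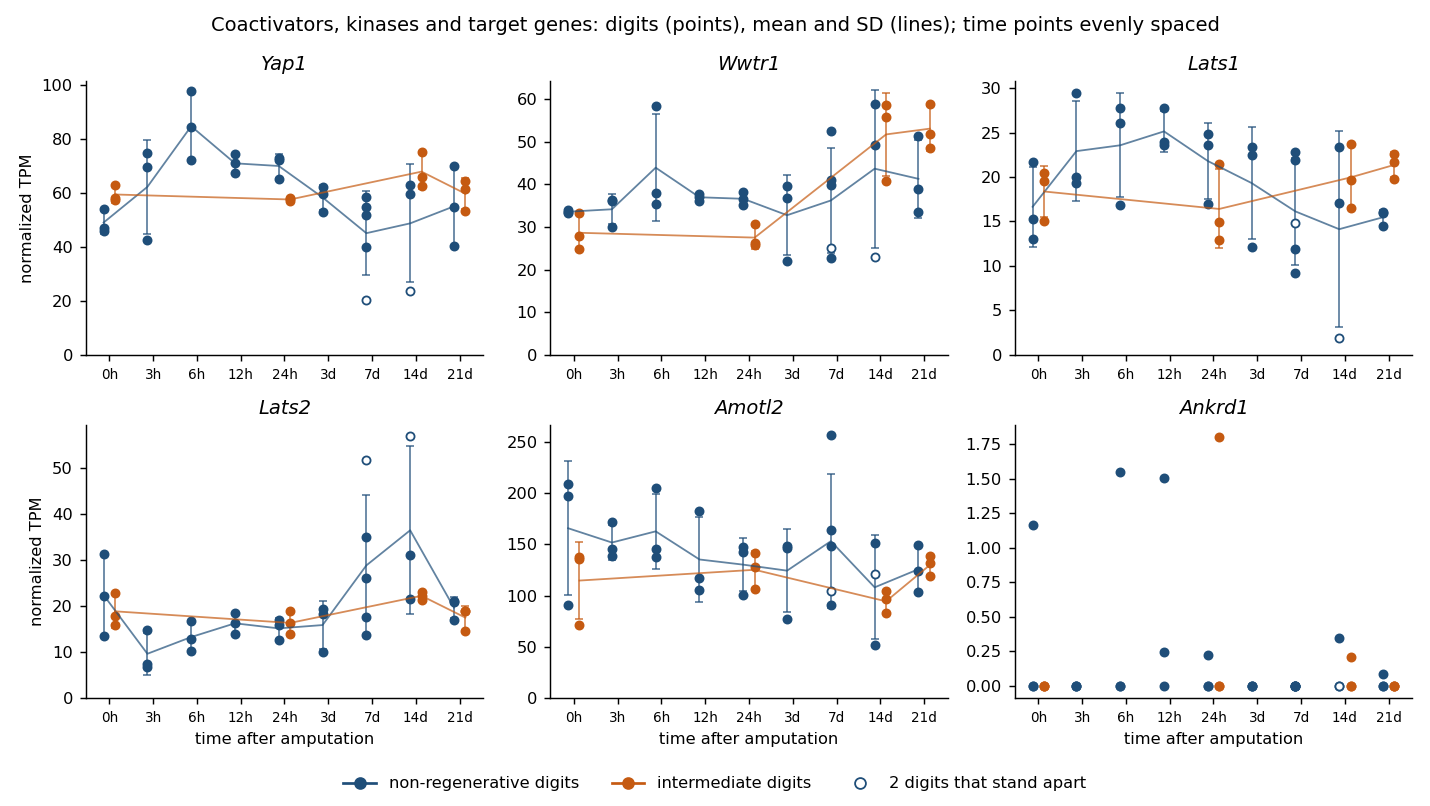
Normalized TPM of the coactivators Yap1 and Wwtr1, the kinases Lats1 and Lats2 and the targets Amotl2 and Ankrd1 (vertical axes) at each time point after amputation (horizontal axis, evenly spaced and not to scale), with 1 point per digit and lines for the mean and SD of non-regenerative (blue) and intermediate (orange) digits; Ankrd1 has points alone. Yap1 was highest at 6 hours in the non-regenerative digits (72.1 to 97.5), Wwtr1 of the intermediate digits was higher at 14 and 21 days than at 0 and 24 hours, and the open points are the 2 digits that stood apart.

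The first comparison asks which members differed from the time of amputation in the non-regenerative digits. Tead4 was the member that passed the test, with higher counts at 6, 12 and 24 hours. By their labels, the digits at these times had 60 to 76%, 64 to 67% and 63 to 73% of the phalanx removed, and those at 0 hours 62 to 75%. None of the digits at 12 hours lies above 67%, and all 3 are of the earlier date period. A gene was called at an adjusted p under 0.05 (edgeR's quasi-likelihood test on the digits of the 2 time points, Benjamini-Hochberg over all tested genes) if the means of its normalized counts, each plus 1, also differed by more than 2-fold. By this rule 1 of the 9 tested members was called at each of 6, 12 and 24 hours, against 4.85%, 11.4% and 10.7% of all tested genes. At 3 hours, 3 days, 7 days, 14 days and 21 days no member was called, against 0%, 0.723%, 0.0537%, 0% and 0.452% of all genes. DESeq2 called the same number of members at each of the 8 times. At 3 hours and 14 days, where edgeR called no gene at all, 1362 and 1044 genes had an unadjusted p under 0.05 and DESeq2 called 196 and 353. Before adjustment, p was under 0.05 for Tead3 at 3 hours, Tead2 at 14 days and Tead1 at 21 days among the times without a call. Ankrd1 did not pass the filter on low counts and was not tested. All 8 comparisons share the 3 digits at 0 hours.

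Tead4, a TEAD factor best known from the trophectoderm of the early embryo and from muscle, had a normalized TPM of 6.52, 7.85 and 10.4 at 0 hours. It was 11.8, 8.33 and 12.5 at 3 hours and 42.6, 27.6 and 21.9 at 6 hours. The ranges at 0 and 6 hours did not overlap, and the lowest digit at 6 hours was above the highest at 3 hours. At 12 hours it was 24.9, 21.7 and 19.9 and at 24 hours 20.6, 17.6 and 19.2. All of these digits were above those at 0 hours. At 3 days it was 7.33, 6.72 and 11.9, within the range of the first hours, and it ran from 6.66 to 14.9 at 14 days and from 7.58 to 9.59 at 21 days. At 7 days the 5 digits ran from 0.201 to 12.2 with a median of 6.87, and the lowest was the digit that stood apart.

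In normalized counts, Tead4 rose from 104 ± 22.2 at 0 hours to 390 ± 136 at 6 hours (SD, n = 3), a log2 fold change of 1.91 ± 0.30 (SE) with an adjusted p of 0.0157 by edgeR. At 12 hours it was 279 ± 43.1 against 98.2 ± 21.3, a log2 fold change of 1.51 ± 0.23 with an adjusted p of 0.00552 by edgeR, and at 24 hours 265 ± 33.0 against 109 ± 23.4, a log2 fold change of 1.27 ± 0.23 with an adjusted p of 0.00899 by edgeR. The calls at 12 and 24 hours held with each digit left out. The call at 6 hours was lost in 3 of 6 such fits, with edgeR adjusted p of 0.0722 without replicate 2 at 0 hours, 0.0603 without replicate 3 at 0 hours and 0.0554 without replicate 2 at 6 hours, while the log2 fold change stayed between 1.60 and 2.117. When all 41 digits shared 1 estimate of the spread, none of the 3 calls held, with edgeR adjusted p of 0.122, 0.171 and 0.288 and log2 fold changes of 1.91, 1.498 and 1.27. When that fit also held the date period, the log2 fold changes were 1.66, 1.106 and 1.04 and the edgeR adjusted p 0.183, 0.390 and 0.394. Within the earlier period the 1 digit at 0 hours had a normalized TPM of 6.52 and those at 6, 12 and 24 hours 19.2 to 42.6, and within the later period the 2 digits at 0 hours had up to 10.4, the 1 digit at 6 hours 21.9 and the 1 digit at 24 hours 17.6. With 1 digit in an arm, a test within a period could not be made.

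Tead4 made up 19.0 ± 4.73% of the summed normalized TPM of the 4 Tead genes at 0 hours, 42.0 ± 6.56% at 6 hours and 34.6 ± 2.76% at 24 hours (SD, n = 3). Tead3 made up 50.7 ± 7.79% at 0 hours and 33.1 ± 5.78% at 6 hours, when Tead4 stood above it in 3 of 3 digits. The summed level was 43.5 ± 0.453 at 0 hours and 71.6 ± 13.6 at 6 hours. These shares are descriptions of the same values and were not tested.

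**Figure D2:**
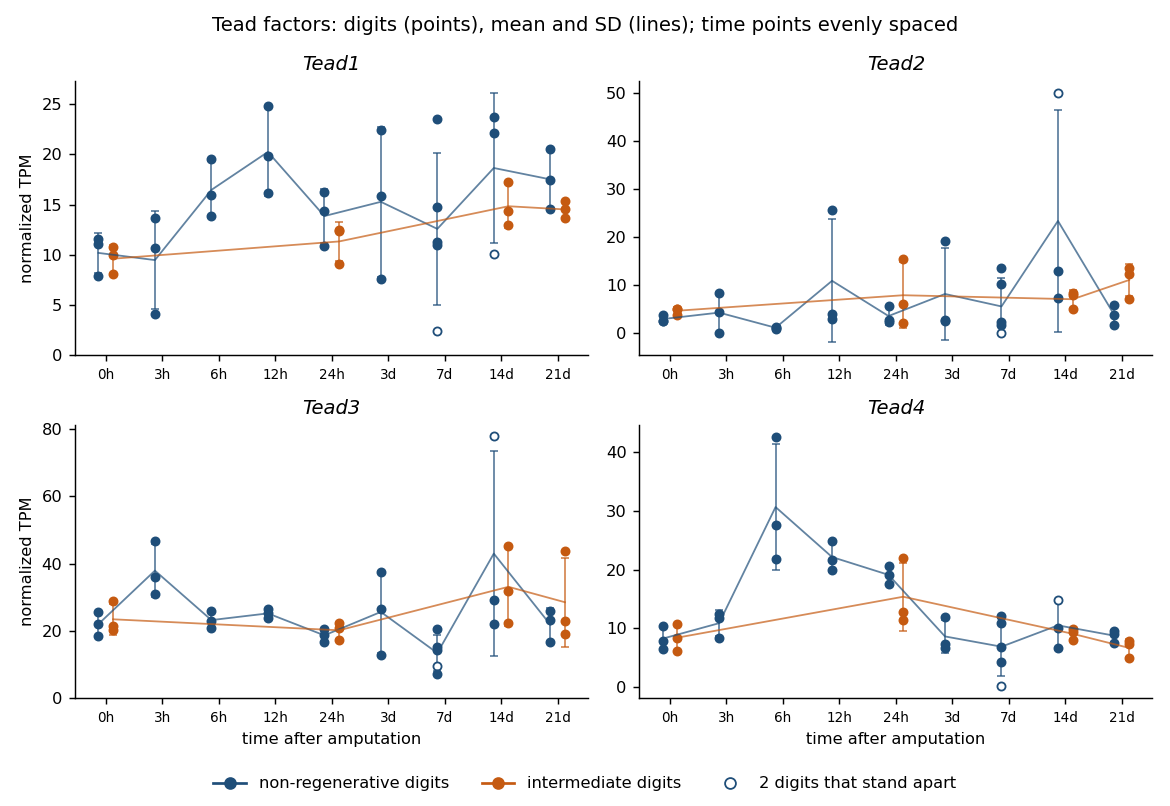
Normalized TPM of Tead1, Tead2, Tead3 and Tead4 (vertical axes) at each time point after amputation (horizontal axis, evenly spaced and not to scale), with 1 point per digit and lines for the mean and SD of non-regenerative (blue) and intermediate (orange) digits. Tead4 was at 21.9 to 42.6 at 6 hours against 6.52 to 10.4 at 0 hours, and the high points of Tead2 (49.9) and Tead3 (77.8) at 14 days are the same open point, a digit that stood apart.

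Markers of neutrophils moved over the same hours. The summed normalized TPM of the 6 markers was 20.1 to 26.4 at 0 hours, 188 to 250.3 at 6 hours, 406 to 1135 at 12 hours and 1134 to 1296 at 24 hours, and of those tested 3 of 4, 5 of 5 and 3 of 4 were called higher at 6, 12 and 24 hours. Ly6g, which defines the type, was at 0 in every digit at 12 hours. At 3 days the markers still summed to 646 to 1107 while Tead4 was at 6.72 to 11.9. The part of neutrophils in the Tead4 values was not tested. In macrophages cultured from bone marrow, Tead4 was at 0.0732 to 1.43 in all 9 libraries, on a scale normalized separately from the digits.

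Yap1, the coactivator itself, had a normalized TPM of 45.9, 54.1 and 47.1 at 0 hours and 97.5, 84.4 and 72.1 at 6 hours. It was 74.4, 71.0 and 67.4 at 12 hours and 72.8, 65.0 and 72.1 at 24 hours. All digits at these 3 times were above those at 0 hours, while those at 3 hours (42.4 to 74.7) overlapped them. The log2 fold change was 0.82 ± 0.18 (SE) at 6 hours and 0.57 ± 0.16 at 12 hours, with edgeR adjusted p of 0.0359 and 0.0409, so that Yap1 passed on p but not on the 2-fold threshold. At 24 hours it was 0.53 ± 0.16 with an edgeR adjusted p of 0.0558. Yap1 was 53.0 to 62.2 at 3 days and 40.5 to 69.8 at 21 days. The lowest values over time, 20.3 at 7 days and 23.6 at 14 days, are those of the 2 digits that stood apart, and the other digits at these times lay between 39.9 and 62.9.

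Wwtr1, the paralog of Yap1, differed less from 0 hours in the non-regenerative digits, and the difference between both genes was not tested. Its normalized TPM was 33.3, 33.4 and 34.0 at 0 hours, 58.2, 35.4 and 38.0 at 6 hours and 37.6, 37.1 and 36.1 at 12 hours. The digits at 6, 12 and 24 hours were all above those at 0 hours, but by log2 fold changes of 0.44 ± 0.20, 0.21 ± 0.13 and 0.18 ± 0.14 (SE), with edgeR adjusted p of 0.211, 0.308 and 0.387. It was 22.7 to 52.5 at 7 days, 23.0 to 58.8 at 14 days and 33.5 to 51.4 at 21 days.

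Tead1, a widely expressed TEAD factor, had a normalized TPM of 7.92, 11.1 and 11.6 at 0 hours, 19.5, 13.9 and 16.0 at 6 hours and 24.8, 16.1 and 19.8 at 12 hours. Both later times lay above 0 hours without overlap. The log2 fold change was 0.83 ± 0.19 (SE) at 6 hours and 0.99 ± 0.16 at 12 hours, with edgeR adjusted p of 0.0414 and 0.00611, so Tead1 passed on p and stayed just under the 2-fold threshold at 12 hours. Tead3, which is high in placenta and epithelia, was 25.7, 22.0 and 18.5 at 0 hours and 36.1, 46.6 and 31.1 at 3 hours, with no overlap. This difference, a log2 fold change of 0.94 ± 0.23, had an edgeR adjusted p of 0.282. Tead2, known from embryonic and neural tissue, rested on at most 155 expected counts per digit, and its gene overlaps Cd37 on the other strand, whose reads could not be told apart where the counting did not use strand, which is not given in the sources used here. It was 0.984 to 1.33 at 6 hours and 2.57 to 3.78 at 0 hours, without overlap and with an edgeR adjusted p of 0.368. Single digits reached 25.8 at 12 hours, 19.2 at 3 days and 49.9 at 14 days. The 25.8 rests on 25.2 expected counts of 5130437, while replicate 1 at 0 hours had 27 of 4747702 at a normalized TPM of 3.78. So the high value at 12 hours holds for normalized TPM and not for counts. The 49.9 is from a digit that stood apart, and the log2 fold change of 2.31 ± 0.85 at 14 days had an edgeR adjusted p of 0.583. Without that digit it was 1.19 with an edgeR adjusted p of 0.428. Without the digits that stood apart no member was called at 7 or 14 days, and the lowest edgeR adjusted p was that of Tead1 at 14 days (0.0458, log2 fold change 0.97, under the 2-fold threshold).

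**Figure D3:**
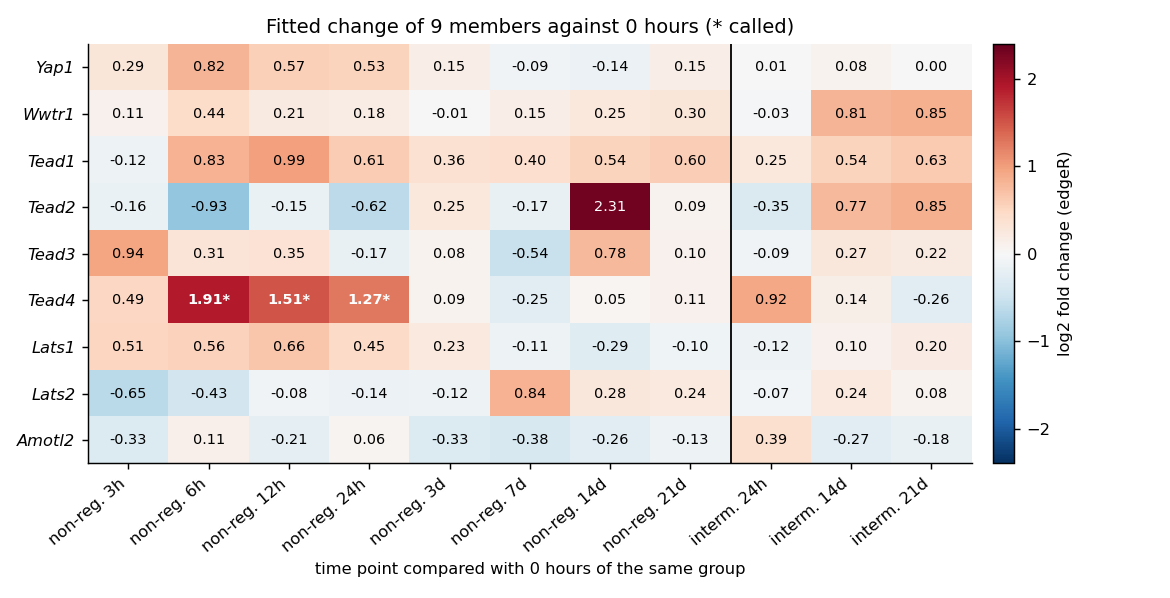
Fitted log2 fold change (color and number, edgeR) of the 9 tested members (rows) at each time point against 0 hours of the same group (columns: 8 for non-regenerative and, right of the line, 3 for intermediate digits). Tead4 at 6, 12 and 24 hours (1.91, 1.51 and 1.27) holds the 3 called values, marked with an asterisk, and the largest number, 2.31 for Tead2 at 14 days, was not called.

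Of the kinases, Lats1 had a normalized TPM of 21.7, 15.3 and 13.0 at 0 hours and 23.96, 23.6 and 27.8 at 12 hours, without overlap, a log2 fold change of 0.66 ± 0.20 (SE) with an edgeR adjusted p of 0.0516. Its lowest value in all digits, 1.92, came from replicate 2 at 14 days. Lats2, which is itself a known YAP target, was 31.4, 13.6 and 22.2 at 0 hours and 14.8, 6.77 and 7.37 at 3 hours. These ranges overlapped, and the edgeR adjusted p was 0.547. The highest Lats2 values were 51.6 at 7 days and 56.7 at 14 days, in the 2 digits that stood apart, where Yap1 was lowest. The 56.7 rests on 129 expected counts, while replicates 1 and 3 at 14 days had 502 and 1044 counts at a normalized TPM of 21.5 and 30.9. So the high value at 14 days holds for normalized TPM and not for counts. Lats2 overlaps a predicted protein-coding gene on the same strand (Gm49361) in the GENCODE M21 annotation, so that reads of the overlap could have been counted for either.

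Amotl2, which encodes a scaffold that binds YAP and is a target of it, had a normalized TPM of 90.6, 197 and 209 at 0 hours and 146, 138 and 205 at 6 hours. Its digits overlapped those at 0 hours at every later time, and its fitted log2 fold changes lay between -0.38 and 0.11. Ankrd1, a cardiac ankyrin repeat protein used as a readout of YAP in many cell lines, was above 0 in 7 of 29 non-regenerative and 2 of 12 intermediate digits, with at most 16 expected counts. In the 32 digits with a count of 0, the limit that 3 counts allow was 0.231 to 2.04 CPM (counts relative to the library total). Its highest values were 1.55 at 6 hours and 1.504 at 12 hours in non-regenerative and 1.80 at 24 hours in intermediate digits, each in 1 digit. In the cultured macrophages Ankrd1 was at 3.86 to 10.1 in all 9 libraries, on their own scale.

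Over all 9 time points of the non-regenerative digits, 7.62% of 14434 genes were called for a change over time (edgeR's F-test of 8 terms, adjusted p under 0.05), and of the 9 tested members none was. Tead4 with an adjusted p of 0.0510 and Tead3 with 0.0778 by edgeR came closest, and unadjusted p was under 0.05 for Tead3, Tead4 and Lats2. This count depended on the 2 digits that stood apart. Without them, 4 members were called, namely Tead4 (edgeR adjusted p 0.000117), Tead3 (0.0242), Yap1 (0.0246) and Tead1 (0.0265), while the share of all genes called rose to 20.4%. Without replicate 2 at 7 days alone, Tead4 was called with an edgeR adjusted p of 0.000303. DESeq2 called 4 members with all 29 digits, namely Tead2, Tead3, Tead4 and Lats2, against 30.5% of all genes.

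In the intermediate digits, Wwtr1 was higher at the late time points. Its normalized TPM was 24.9, 27.8 and 33.2 at 0 hours, 25.7, 26.1 and 30.7 at 24 hours, and on day 14 it was 40.6, 58.6 and 55.8. The digits of day 21 had 51.8, 48.4 and 58.9. Every late digit was above every early one. Over the 4 time points Wwtr1 was the 1 of 9 tested members called for a change over time (edgeR's F-test of 3 terms, adjusted p = 0.00748), against 6.21% of 14004 genes, and it was called in each of 16 alternatives, with adjusted p from 1.13e-06 to 0.0278. DESeq2 also called Tead4. In single comparisons with 0 hours its log2 fold change was 0.81 ± 0.19 (SE) at 14 days and 0.85 ± 0.15 at 21 days, with edgeR adjusted p of 0.0762 and 0.0257, under the 2-fold threshold. So 0 members were called by edgeR and by DESeq2 against 0 hours at 24 hours, 14 days and 21 days, where 0.0152%, 1.68% and 1.39% of all genes were called by edgeR, and unadjusted p was under 0.05 for Tead4 at 24 hours and for Wwtr1 and Tead1 at both late times. Within the earlier period the 3 digits at 0 and 24 hours had 25.7 to 33.2 and the 5 late digits 48.4 to 58.9, and within the later period the 3 early digits had 24.9 to 30.7 and the 1 late digit 40.6.

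Markers of fibroblasts, osteoblasts and osteoclasts moved with Wwtr1 in the intermediate digits. The summed normalized TPM of the 5 fibroblast markers in the intermediate digits was 907 to 2457 at 0 hours, 703 to 1051 at 24 hours, 6921 to 14083 at 14 days and 5339 to 12807 at 21 days, and 3 of 5 were called higher than at 0 hours at both late times. None of the 5 was at 0 in every digit of a time point. In the non-regenerative digits the same sum was 8096 to 21205 at 14 days against 824 to 1701 at 0 hours, while Wwtr1 was 23.0 to 58.8 against 33.3 to 34.0. The 21205 and the 23.0 both come from replicate 2 at 14 days, which stood apart. Replicates 1 and 3 at 14 days had sums of 13744 and 8096 and Wwtr1 of 58.8 and 49.1, above its values at 0 hours. At 7 days the sum in the non-regenerative digits was 1564 to 11281 and Wwtr1 22.7 to 52.5. At 21 days the sum was 3335 to 6747 and Wwtr1 33.5 to 51.4, and at both times Wwtr1 overlapped its values at 0 hours. The sum of 4 osteoblast markers in the intermediate digits was 46.7 to 128 at 0 hours, 628 to 1631 on day 14 and 341 to 719 on day 21, and 4 and 3 of them were called higher at these late times. The sum of 3 osteoclast markers was 35.2 to 85.3, 333 to 431 and 187 to 316, with 1 of 2 and 2 of 3 tested markers called higher. The part of these cell types in the Wwtr1 values was not tested.

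**Figure D4:**
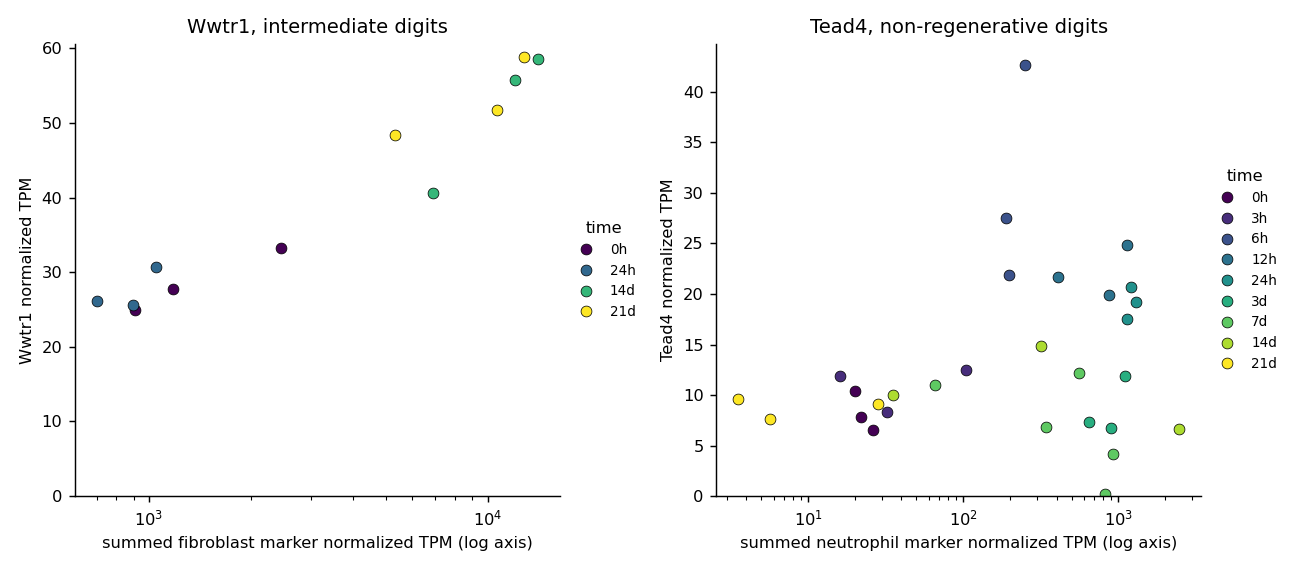
Normalized TPM on vertical axes, with 1 point per digit colored by time and logarithmic horizontal axes: left, Wwtr1 against the summed normalized TPM of 5 fibroblast markers in the 12 intermediate digits; right, Tead4 against that of 6 neutrophil markers in the 29 non-regenerative digits. The 6 late intermediate digits lie at upper right (Wwtr1 40.6 to 58.9), and the highest Tead4 value (42.6) is from 6 hours, when the neutrophil sum (188 to 250.3) was below that at 12 and 24 hours.

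By edgeR the other members did not pass in the intermediate digits. Tead4 had a normalized TPM of 10.8, 6.11 and 8.35 at 0 hours and 22.0, 12.8 and 11.4 at 24 hours, all higher, with a log2 fold change of 0.92 ± 0.36 (SE) and an edgeR adjusted p of 0.288. Its highest digit at 24 hours, 22.0, was also the one with the highest neutrophil sum there (1346, against 140 and 413 in the others). The same digit had the lowest amputation level at 24 hours (41%) and alone was of the earlier date period. The part of any of these in the Tead4 value was not tested. Tead1 was 9.99, 8.04 and 10.8 at 0 hours and 14.5, 15.4 and 13.6 at 21 days, with no overlap and an edgeR adjusted p of 0.0757. Yap1 lay between 53.4 and 75.2 in all 12 digits, and its 3 fitted log2 fold changes against 0 hours were 0.01, 0.08 and 0.00.

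The comparison of the 2 amputation levels asks whether members differed at the same time after amputation. At 0 hours, 24 hours, 14 days and 21 days 0 of 9 tested members were called, against 0%, 0%, 0% and 0.648% of all genes, and DESeq2 called none of them either. At the first 3 of these times 491, 1472 and 270 genes had an unadjusted p under 0.05 by edgeR, and DESeq2 called 17, 155 and 0. Unadjusted p was under 0.05 for Wwtr1 at 24 hours and Lats1 at 21 days. Yap1 at 24 hours was 57.1 to 58.0 in intermediate and 65.0 to 72.8 in non-regenerative digits, without overlap, a log2 fold change of -0.25 ± 0.16 (SE) with an edgeR adjusted p of 0.563. Wwtr1 at 24 hours was 25.7 to 30.7 in intermediate and 35.0 to 38.1 in non-regenerative digits, a log2 fold change of -0.42 ± 0.15 with an edgeR adjusted p of 0.392. Tead4 at 24 hours overlapped, at 11.4 to 22.0 against 17.6 to 20.6, and Lats1 at 21 days was 19.8 to 22.6 against 14.5 to 16.0, a log2 fold change of 0.40 ± 0.12 with an edgeR adjusted p of 0.200. At 21 days all 3 intermediate digits are of the earlier and all 3 non-regenerative digits of the later date period, so that amputation level and period cannot be told apart there. Over the 4 shared times in 1 fit, the group term called 0% of 14249 genes by edgeR and by DESeq2, with 852 at an unadjusted p under 0.05, and 0 members on either count. The fitted group difference ran from -0.24 for Amotl2 to 0.16 for Lats1 on the log2 scale. Without the non-regenerative digit that stood apart at 14 days it ran from -0.24 for Amotl2 to 0.26 for Tead2, and no member was called for the group term, for the interaction or at 14 days. The test of a different course over time called 0% of 14768 genes by edgeR, with 1048 at an unadjusted p under 0.05 and 3 called by DESeq2, and 0 members by either, nor by unadjusted p. So the rise of Tead4 in non-regenerative and the course of Wwtr1 in intermediate digits were not shown to differ between the groups. No intermediate digits were collected at 3, 6 or 12 hours.

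Of the other genes of the pathway, 23 upstream regulators and 19 target genes were listed. In the non-regenerative digits 0 of 21 tested upstream genes were called against 0 hours at any time by edgeR. Over the 8 times together there were 26 unadjusted p under 0.05 and 2 calls by DESeq2. Over all genes, unadjusted p by edgeR was under 0.05 for 566 of 13046 at 7 days up to 4589 of 13075 at 12 hours. Both DESeq2 calls were at 24 hours, where it called 1829 genes. Over time edgeR called 1 of 21 upstream genes, against 7.62% of all genes. This was Fat4, an atypical cadherin above the kinases, with an edgeR adjusted p of 0.0487. It was followed by its ligand Dchs1 (0.127) and Wwc1 (0.139), which encodes the scaffold KIBRA. In the intermediate digits Fat4 was called higher at 21 days, with 289 ± 71.8 normalized counts against 83.3 ± 26.2 at 0 hours (SD, n = 3), a log2 fold change of 1.82. There, 3 of 21 upstream genes were called over time by edgeR, Fat4, Dchs1 and Map4k4, against 6.21% of all genes. DESeq2 called 5 of 21 over time in the non-regenerative and 8 of 21 in the intermediate digits, against 30.5% and 15.3% of all genes. Without the digits that stood apart, edgeR called 6 of 21 in the non-regenerative digits, against 20.4% of all genes, among them Fat4 (adjusted p 0.00521).

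Among the 18 tested targets in the non-regenerative digits, edgeR called 1 higher and 3 lower at 12 hours and 1 higher and 2 lower at 24 hours, against 11.4% and 10.7% of all genes, and none at the other 6 times. DESeq2 called 2 at 6 hours, 5 at 12 hours and 3 at 24 hours, where it called 1113, 1959 and 1829 of all genes. At 6 hours unadjusted p by edgeR was under 0.05 for 9 targets and for 3368 of 13168 genes. Igfbp3, which encodes a binding protein of insulin-like growth factors, rose from 418 ± 65.8 to 1969 ± 104 normalized counts at 24 hours (SD, n = 3), a log2 fold change of 2.23 with an edgeR adjusted p of 0.000313. Ccdc80, a matrix protein, fell from 1958 ± 422 to 413 ± 172, a log2 fold change of -2.25 with an edgeR adjusted p of 0.00429. Of the 5 fibroblast markers, 1 was called lower at 12 hours and 2 at 24 hours, and their part in the fall of Ccdc80 was not tested. Over time 3 of 19 tested targets were called by edgeR in non-regenerative digits, against 7.62% of all genes, namely Ccdc80, F3 (tissue factor) and Igfbp3, with edgeR adjusted p of 0.00438, 0.00503 and 0.00901, and 3 of 19 in intermediate digits, against 6.21%. DESeq2 called 7 of 19 targets in each group, where its share of all genes was 30.5% for non-regenerative and 15.3% for intermediate digits. With the 2 digits that stood apart left out, edgeR called 8 of 19 targets in non-regenerative digits, against 20.4% of all genes. In the intermediate digits 1 target was called higher than at 0 hours at 21 days, Tgfb2, a TGF-beta ligand, with a log2 fold change of 1.04. In the non-regenerative digits, the medians of the fitted log2 fold changes of the tested targets at 12 and 24 hours were 0.27 and 0.12. They were 0.21 and 0.10 for the tested upstream genes and -0.03 and -0.04 over all genes. At the other 6 times the target median ran from -0.12 at 3 days to 0.28 at 21 days. Differences between these medians were not tested.

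The targets most often read as YAP output, Ctgf and Cyr61, were not called by edgeR in any comparison of all digits. Over time in the non-regenerative digits the edgeR adjusted p was 0.253 for Ctgf and 0.757 for Cyr61, and without the 2 digits that stood apart it was 0.269 and 0.0189, so that Cyr61 was then called. DESeq2 called Cyr61 over time in the intermediate digits. Ctgf had a normalized TPM of 122, 42.0 and 58.2 at 0 hours and 137, 113 and 189 at 12 hours, a log2 fold change of 1.14 ± 0.34 (SE) on counts with an edgeR adjusted p of 0.0517. Cyr61 was 73.0, 37.0 and 49.1 at 0 hours and 59.0, 75.4 and 102 at 12 hours, with overlap, a log2 fold change of 0.63 ± 0.27 and an edgeR adjusted p of 0.133. Between the groups over the shared times their differences were -0.21 ± 0.21 and -0.11 ± 0.21 on the log2 scale.

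Across the 29 non-regenerative digits, Tead4 had the highest Spearman's rho with Yap1 among the members, 0.66, and Lats1 was next with 0.59. Tead1 and Tead3 had 0.33 each, Wwtr1 0.23, Ankrd1 0.06, Amotl2 0.02 and Tead2 -0.06, and Lats2 had -0.60. These are descriptions over digits that share time points, libraries and their depth. For scale, the median rho with Yap1 over 13659 genes was -0.0044, and 6.68% of them exceeded 0.5. With each digit left out in turn, rho stayed between 0.63 and 0.73 for Tead4, between 0.55 and 0.71 for Lats1 and between -0.71 and -0.56 for Lats2.

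The values depended on how the digits were taken. Over the 17 digits with more than 67% removed, rho was 0.52 for Lats1, 0.44 for Tead4, -0.04 for Wwtr1, -0.37 for Tead2 and -0.55 for Lats2, and Tead4 was then not the highest member. Without the 2 digits that stood apart, rho was 0.69 for Tead4, 0.51 for Lats1, -0.51 for Lats2 and 0.07 for Wwtr1. On deviations from the mean of each time point, Pearson's r over all 29 digits was 0.49 for Tead4, 0.51 for Lats1, -0.57 for Lats2 and 0.04 for Tead3. Without the 2 digits it was 0.37, 0.09, -0.14 and 0.65. On counts scaled by TMM, Lats2 had -0.31 and Amotl2 0.41. Within the earlier and the later date period, Tead4 had 0.61 (n = 16) and 0.46 (n = 13), Lats1 0.24 and 0.62, and Lats2 -0.20 and -0.63. In the 12 intermediate digits, where Yap1 hardly varied, Tead4 had a rho of -0.04, Lats1 0.24, Lats2 0.50 and Tead3 0.70. On deviations from the mean of each time point, Pearson's r in these 12 digits was 0.52 for Tead4, 0.13 for Lats1, 0.16 for Lats2 and 0.58 for Tead3. So Tead4 was near its value of 0.49 in the non-regenerative digits on this measure. The differences between the groups in rho were not tested.

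**Figure D5:**
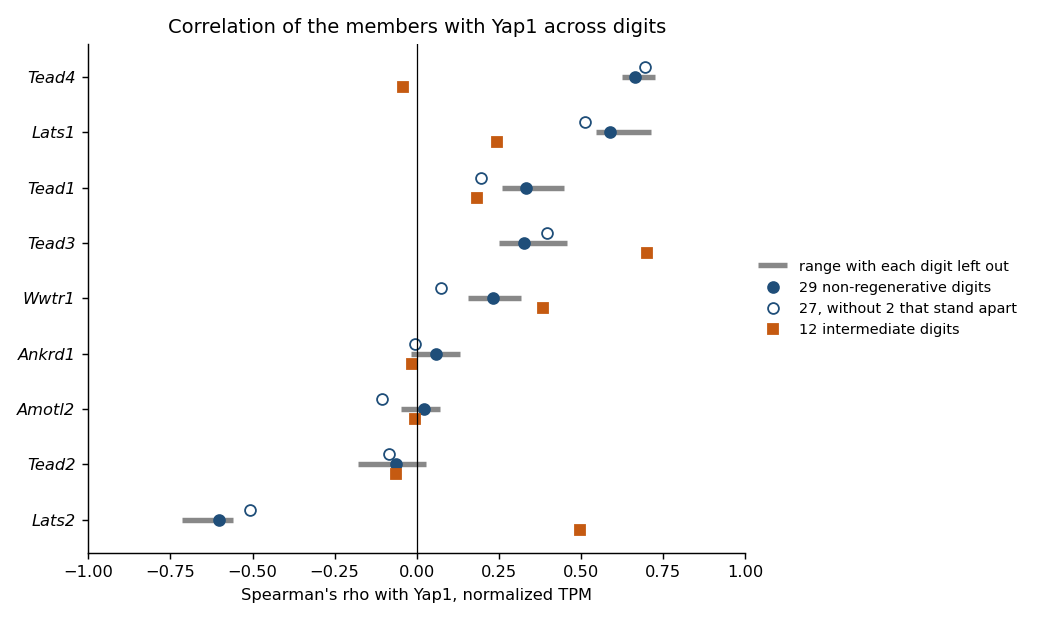
Spearman's rho of each member with Yap1 across digits (horizontal axis), for the 29 non-regenerative digits (filled circles, with a bar for the range when each digit is left out), for 27 without the 2 that stood apart (open circles) and for the 12 intermediate digits (squares). Tead4 (0.66) and Lats1 (0.59) lie highest and Lats2 (-0.60) lowest in the non-regenerative digits, and in the intermediate digits Tead4 is at -0.04 and Lats2 at 0.50.

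The genes most like Yap1 were not members. Among genes whose normalized TPM averaged 1 or more, the 5 with the highest rho over the 29 digits were Zdhhc13 (0.86), a palmitoyltransferase, Tgfa (0.85), a ligand of the EGF receptor, Pde12 (0.84), a mitochondrial phosphodiesterase, Eif3l (0.84), a subunit of translation initiation factor 3, and Ugcg (0.84), the enzyme that makes glucosylceramide. The 3 lowest were Hebp1 (-0.87), a heme-binding protein, Stmn2 (-0.86), a neuronal microtubule regulator, and Eid1 (-0.85), an inhibitor of the acetyltransferase EP300. Without the 2 digits that stood apart all 8 kept values beyond 0.80 in size, from 0.80 to 0.84 and from -0.84 to -0.82. In the 12 intermediate digits they ran from -0.50 for Tgfa to 0.70 for Eid1, which was among the lowest in the non-regenerative digits.

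The macrophages cultured from bone marrow of female C57BL/6 mice, unstimulated (M0), treated with IFN-γ and LPS (M1) or with IL-4 (M2) for 24 hours, show the members outside the digit, in tables normalized separately and described without a test. Yap1 had a normalized TPM of 7.48 to 8.82 in M0, 4.13 to 4.78 in M1 and 12.7 to 13.97 in M2, and the 3 states did not overlap. Wwtr1 was 2.98 to 8.22 over the 9 libraries. Of the summed Tead level Tead1 made up 60.7 ± 1.36% in M0 (SD, n = 3), where Tead4 made up 1.197 ± 0.741%, in contrast to the 23.4 ± 4.75% and 19.0 ± 4.73% of the non-regenerative digits at 0 hours. Lats1 was 38.7 to 40.1 in M1 against 18.04 to 22.1 in M0 and M2.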

How the data were processed

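RNA of 29 non-regenerative digits, 12 intermediate digits and 9 macrophage cultures was sequenced as single-end reads from LM-Seq libraries of poly A+ RNA. The authors mapped reads with Bowtie to mm10 (Ensembl genes of GRCm38) and deposited expected counts per gene from RSEM 1.2.3, without normalization. They also deposited TPM scaled by median-by-ratio normalization, a signal here called normalized TPM, whose sums differ between libraries. Of the genes, 26 carried dates in place of names and were named again from their transcript lists.

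Groups, times, amputation levels and date periods came from the labels. Expected counts were rounded, filtered with filterByExpr, scaled by TMM and tested with edgeR 4.0.16 (limma 3.58.1, R 4.3.3), with p-values adjusted over all tested genes. Pairs of groups were fitted alone, and the tests over several time points used 29, 12 or 24 digits. The study used EBSeq with the same 2-fold threshold, which was not installed. Totals per library are given in the report and ran to 27904773 in macrophages. For a gene at 0 the limit was set at 3 counts, which covers counting error only. Between replicates the chi-square per degree of freedom was 10.2 to 411 over 46 pairs, so no digits were counted as 1 sample. The scripts were tested on simulated data. Positions came from GENCODE M21 and promoters from RefSeq, both GRCm38.

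The members, the lists and the rule for named genes were chosen with earlier results of these data known. The rule takes the 10 members, the 3 genes with the smallest p over time in non-regenerative digits in each list, Ctgf, Cyr61, and the 5 highest and 3 lowest rho with Yap1 among genes whose normalized TPM averaged 1 or more. Map4k4 and Tgfb2, named as members of small counts, fall outside it and were chosen after their values were seen. Alternatives were DESeq2 1.42.0, RLE scaling, no filter, no fold threshold, 1 fit of all digits with and without the date period, and leaving out each digit. Leaving out the 2 digits that stood apart together was chosen after seeing the data.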

Additional observations from a re-analysis of the deposited data

How the results depend on the processing

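Of the counts of called members, those between intermediate and non-regenerative digits, for the group term and for the interaction stayed at 0 under every alternative run. The calls against 0 hours in non-regenerative digits (3 in all, each of Tead4) became 0 with all digits in 1 fit, with or without the date period, and 7 without the fold threshold, and ran from 2 to 4 with each digit left out. Those in intermediate digits (0) became 1 without the fold threshold (Wwtr1 at 21 days). Over time in non-regenerative digits the count of 0 became 1 with RLE scaling (Tead3), 1 with no filter (Tead4), 4 with DESeq2 and 4 without the 2 digits that stood apart, and ran from 0 to 2 with each digit left out, the calls coming without replicates 1, 2 or 3 at 14 days or replicates 1, 2 or 4 at 7 days. Over time in intermediate digits the count of 1 became 2 with DESeq2. The median rho of the 9 other members with Yap1, 0.23, was 0.0406 on deviations from each time point's mean without the 2 digits that stood apart, and from 0.15 to 0.28 with each digit left out. The loss of calls in 1 fit of all digits goes with a shared estimate of the spread that includes the digits that stood apart, and the cause was not tested. Over all genes, the 1100 called over time in non-regenerative digits became 2354 with RLE scaling, 4406 with DESeq2 and 3003 without the 2 digits that stood apart, the 869 in intermediate digits became 2137 with DESeq2, and the 638, 1491 and 1437 called at 6, 12 and 24 hours became 116, 421 and 331 with all digits in 1 fit. No paired analysis was possible because the labels of the digits carry no replicate numbers that link groups, and the macrophages, whose labels do, were not tested. Tead2 and Ankrd1 are limited by depth, and no comparison had more than 5 digits in a group.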
